A study of Mus musculus with 2 samples.

Results

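The genes described here belong to the hypoxia-inducible factor (HIF) pathway. They are 8 components of the pathway's oxygen-sensing machinery and 26 genes known as HIF targets or as genes of the response to low oxygen. They were chosen by name and by known function, but with earlier results of these data known. They are 34 genes among the 23462 genes that could be named on the array. Ero1l, an old name of Ero1a, was merged with it. The cells were naive CD8 T cells (CD44low CD62Lhigh) from the spleen of C57BL/6 mice. Both cultures were activated over 2 days by plate-bound antibodies against the T cell receptor β chain at 3 µg/ml and against CD28 at 1 µg/ml, with interleukin-2 at 10 ng/ml. One received vehicle and the other prednisolone, a synthetic glucocorticoid, at 1 µM. Both cultures then grew for 3 more days on a new plate with interleukin-2, and RNA of day 5 was hybridised to 1-colour Agilent arrays. The number of animals and the oxygen level of the cultures are not given in the sources used here.

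HIF is a pair of proteins, an α subunit (encoded by Hif1a or Epas1) and the partner ARNT. When oxygen is present, the prolyl hydroxylases encoded by the Egln genes modify the α subunit, the von Hippel-Lindau protein VHL binds it, and it is degraded. When oxygen is low, or when T cell receptor and cytokine signals raise synthesis of the α subunit, the pair accumulates and switches on genes for glycolysis, mitochondrial turnover, blood vessel growth and its own hydroxylases. In CD8 T cells the pathway is known for its part in effector metabolism. The arrays measured RNA, so the amount and activity of the HIF proteins were not measured.

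There was 1 array per condition, so the conditions could not be tested against each other and the spread between cultures is unknown. Differences are given on the log2 scale as prednisolone minus vehicle, each array having been scaled to its 75th percentile. The error after ± is the technical error that the scanner software gives for the spots, combined over the spots and probes of a gene. Its median over genes was 0.20. It does not include differences between cultures or disagreement between probes of a gene. For the 300 probes printed 10 times, the SD of the difference over the spots of a probe had a median of 0.028. Genes that differed by 2-fold or more (1 on the log2 scale) are counted below, as a rule of size. A gene was measured when a probe was well above background on both arrays, which held for 11968 genes. Of all measured genes, 792 were at least 2-fold lower with prednisolone (6.62%) and 690 at least 2-fold higher (5.77%). When the arrays were scaled on spike-in control probes instead, the median gene moved up by 0.24, and the split became 486 lower and 1143 higher.

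The drug and the cell type were checked first. Fkbp5, a glucocorticoid-induced immunophilin, was higher with prednisolone by 2.57 ± 0.14, and Tsc22d3, another glucocorticoid-induced gene, by 1.45 ± 0.14. Cd8a differed by -0.01 ± 0.14, and Cd8b1 had only spots with an outlier flag. All 10 usable genes of the CD8 T cell list were above background on both arrays. Apart from Cd8a they are genes that T cells share, such as Cd3e and Lck, and cannot separate CD8 from CD4 T cells. The summed processed intensity of the 10, before scaling, was 231367 with vehicle and 179979 with prednisolone. In all, 9 of the 10 lay below 0 (median -0.39), none of them by 2-fold. Cd4 differed by 0.08 ± 0.20, and the summed intensity of 4 usable CD4 T cell markers was 1116 and 1138. B cell markers summed to 58.8 and 47.1 intensity units, with Cd79a and Ms4a1 not well above background on either array. Markers of natural killer cells summed to 70.7 and 145 (Klrc1 1.22 ± 0.24, and Klra8 at least 4.51-fold higher), and stromal and endothelial markers to 139 and 161. Myeloid markers summed to 2806 and 2143, with Cd68 at -2.22 ± 0.20, Csf1r at 0.23 ± 0.21, Itgam at 0.02 ± 0.22, and Lyz2, Adgre1, Itgax and Fcgr1 not well above background on either array. Neutrophil markers summed to 1235 and 875, with Ly6g at -0.56 ± 0.20, Cxcr2 at least 5.67-fold higher with prednisolone, and S100a8 and S100a9 not well above background. Erythroid and platelet markers summed to 76.7 and 903, which was Hba-a1 (3.97 ± 0.05), while Klf1, Pf4 and Itga2b were not well above background. The part of these markers in the differences of the HIF genes was not tested. In a bulk sample, fewer cells of a type and less RNA per cell cannot be told apart.

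Most HIF target genes were lower in the cells that had received prednisolone. Of the 8 genes of the oxygen-sensing machinery, 7 differed by less than 2-fold, near the share of all measured genes (10486 of 11968). Of the 24 target genes measured on both arrays, 14 were at least 2-fold lower (58.3%) and 1, Cited2, was at least 2-fold higher. Of all measured genes, 6.62% were lower by that rule and 5.77% higher, so the count of higher targets is near that share. The median difference of the targets was -1.20, against 0.00 over all measured genes. In all, 22 of the 24 targets lay below 0, as did 49.9% of all measured genes. Of the 8 components, all measured, 1 was at least 2-fold lower (Egln3) and none higher, and 6 lay below 0, with a median of -0.53. The lowest values were those of Tmem45a, Ero1a, Egln3, Hilpda and Mxi1. Of the 32 measured members, 27 differed by more than 2 technical errors, and Hif1a, Arnt, Jmjd6, Angptl4 and Higd1a did not. Hif1an counts among the 27 although its probes lay on both sides of 0 (0.24 and -1.08), a disagreement that the technical error leaves out. The remaining 2 members, Adm and Ndrg1, have no measured difference and are described with their groups.

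**Figure D1:**
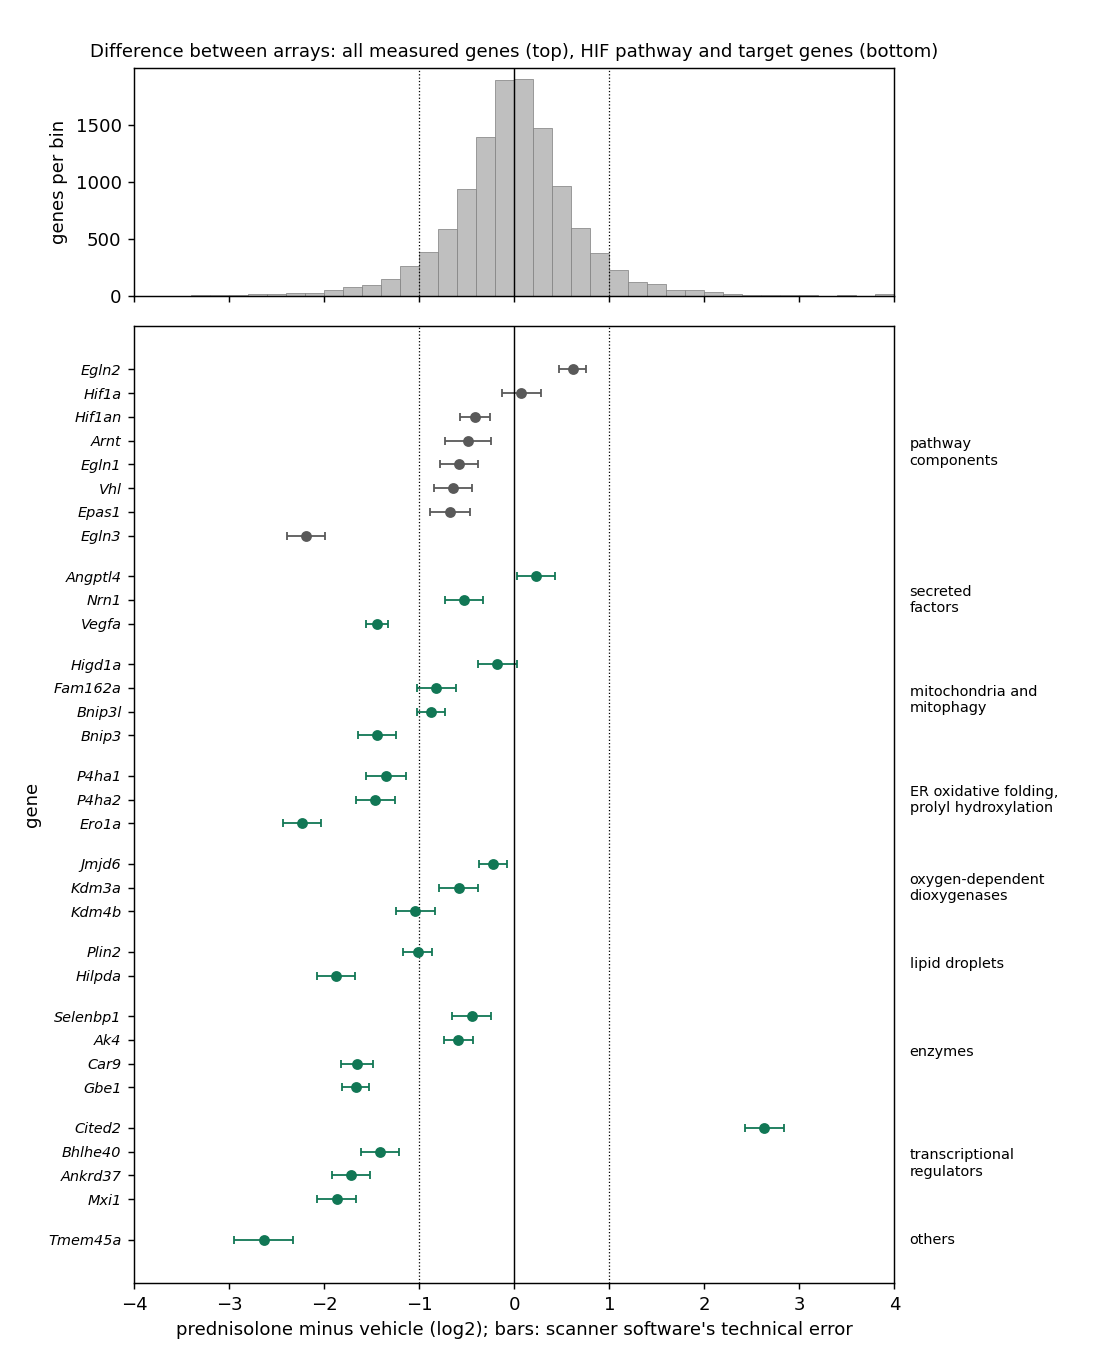
The log2 difference between the arrays, prednisolone minus vehicle, is on the horizontal axis: the upper panel counts all 11968 measured genes per bin, and the lower panel gives each measured member as a point (components grey, targets green) with the scanner software's technical error as a bar and dotted lines at 2-fold. The genes as a whole centre on 0, while the members run from -2.64 for Tmem45a to 2.63 for Cited2 and 15 of the 32 lie left of the lower dotted line.

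HIF binds the core letters ACGTG or, less often, GCGTG near genes it switches on, so the stretches before the members' starts were searched for these letters. The RefSeq promoter table of assembly GRCm38.p6, with windows of 300 bases (250 before to 50 after the annotated start), held 27 of the 34 members. Not in the table were Epas1, Bnip3l, Ndrg1, Kdm4b, Angptl4, Nrn1 and Bhlhe40. The 6 members below are shown because their start is the gene's outermost annotated one and ACGTG lies before it. Of the 10 members that meet this rule, they are the 4 with the lowest differences, the one nearest to 0 and the highest. The 250 bases before each start are printed 5′ to 3′ on the gene's strand, with ACGTG or its reverse complement CACGT in capitals. At Cited2 both overlap in the palindrome CACGTG, the E-box of other basic helix-loop-helix factors.
Ero1a, chr14:45318573-45318822, minus strand: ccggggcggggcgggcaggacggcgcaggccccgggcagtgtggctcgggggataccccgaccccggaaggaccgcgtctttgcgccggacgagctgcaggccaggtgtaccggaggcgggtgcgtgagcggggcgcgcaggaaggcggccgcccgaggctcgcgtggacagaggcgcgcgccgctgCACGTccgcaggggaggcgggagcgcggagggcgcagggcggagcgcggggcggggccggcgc
Egln3, chr12:54203875-54204124, minus strand: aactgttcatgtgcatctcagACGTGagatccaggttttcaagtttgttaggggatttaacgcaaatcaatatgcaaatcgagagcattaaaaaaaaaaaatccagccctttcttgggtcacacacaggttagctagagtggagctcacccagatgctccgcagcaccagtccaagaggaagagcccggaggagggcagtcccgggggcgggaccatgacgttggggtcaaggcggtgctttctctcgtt
Car9, chr4:43506776-43507025, plus strand: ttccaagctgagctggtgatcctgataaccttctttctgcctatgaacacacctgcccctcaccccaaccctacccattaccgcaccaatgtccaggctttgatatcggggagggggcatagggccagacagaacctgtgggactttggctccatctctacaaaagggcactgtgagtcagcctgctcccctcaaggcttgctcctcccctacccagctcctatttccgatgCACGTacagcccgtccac
P4ha2, chr11:54100674-54100923, plus strand: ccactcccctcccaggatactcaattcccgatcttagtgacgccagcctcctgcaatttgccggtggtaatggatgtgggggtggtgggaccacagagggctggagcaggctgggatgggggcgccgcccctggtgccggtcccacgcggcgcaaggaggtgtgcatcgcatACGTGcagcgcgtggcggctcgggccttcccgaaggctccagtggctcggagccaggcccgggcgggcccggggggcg
Selenbp1, chr3:94932833-94933082, plus strand: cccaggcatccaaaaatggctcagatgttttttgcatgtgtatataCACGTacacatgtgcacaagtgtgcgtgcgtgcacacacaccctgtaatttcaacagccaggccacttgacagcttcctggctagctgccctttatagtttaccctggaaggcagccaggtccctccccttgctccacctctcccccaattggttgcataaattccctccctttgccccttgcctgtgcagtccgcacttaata
Cited2, chr10:17722978-17723227, plus strand: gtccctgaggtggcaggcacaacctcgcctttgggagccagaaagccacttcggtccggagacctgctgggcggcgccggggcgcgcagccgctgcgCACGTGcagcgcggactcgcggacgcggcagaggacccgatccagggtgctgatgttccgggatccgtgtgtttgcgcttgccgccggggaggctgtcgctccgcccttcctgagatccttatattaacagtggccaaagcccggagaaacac

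Ero1a, Egln3, Car9, P4ha2 and Selenbp1 in this set were lower with prednisolone and Cited2 was higher. Both the letters and the differences were part of the rule for printing, so neither is a result about these 6 members. Over the gene set, ACGTG on either strand was found in 20 of 27 members (74.1%), against 29.1% of 9600 measured genes in the table and 21.8% of all genes in it. Among targets it was found in 16 of 20, and among components in 4 of 7. The members were chosen as known HIF genes, so a higher share of these letters goes with that choice. It is not a result about prednisolone. The letters did not separate the targets by their difference: 10 of the 12 targets at least 2-fold lower held them (not Gbe1 and Tmem45a), as did 6 of the other 7 measured targets (not Kdm3a). GCGTG was found in 19 of 27 members (70.4%) against 53.7% of measured genes. AGAACA, one arm of the palindrome that the glucocorticoid receptor binds, was in no window of the 27 members, against 15.7% of measured genes with a match. The median GC content was 64.3% for the members' windows and 60% for those of measured genes, and base composition was not matched. A match of letters is a description of the sequence, not a site, and the arrays did not measure binding.

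**Figure D2:**
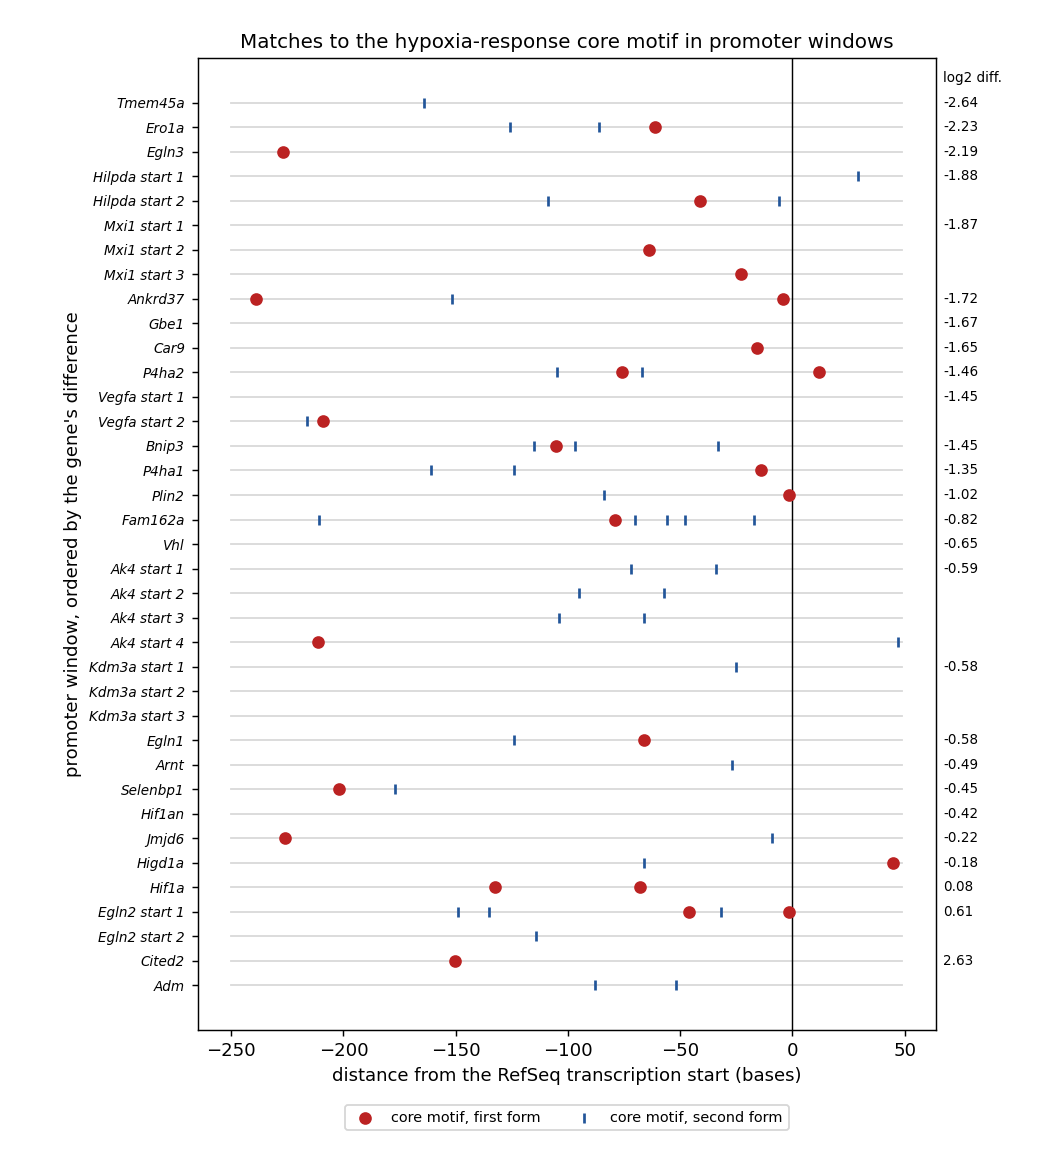
Matches to the core motif on either strand are plotted at their centre by distance from the annotated start in bases (horizontal axis), 1 line for each promoter window of the 27 members in the table; red points mark ACGTG, blue ticks GCGTG, and the log2 difference of the gene stands at the right. Red points lie on lines at the top and at the bottom of the order, from Ero1a (-2.23) to Cited2 (2.63).

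Among the pathway's components, the α subunits and their partner differed by less than 2-fold. Hif1a, which encodes the main α subunit in T cells, had a processed intensity of 6553 with vehicle and 6672 with prednisolone, a difference of 0.08 ± 0.20. Epas1, encoding the second α subunit, had 189 and 115, a difference of -0.68 ± 0.21. Arnt was dim, with 49.7 and 34.2 on the probe used (-0.49 ± 0.24). A second Arnt probe, with an outlier flag for the local background only, read 808 and 596 (-0.39).

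The hydroxylases and VHL differed among themselves. Egln3, the prolyl hydroxylase that is itself a HIF target, had 4729 with vehicle and 999.7 with prednisolone, 4.57-fold lower (-2.19 ± 0.20), which ranked 111 from the lowest of the 11968 genes. Egln1, the main oxygen sensor of most cells, had 15417 and 9954 (-0.58 ± 0.20). Egln2 was the component on the other side: its probes read 7254 and 977 with vehicle against 10738 and 1443 with prednisolone, a mean difference of 0.61 ± 0.14. The differences of the hydroxylases thus ran in both directions. Vhl, the recognition subunit of the ubiquitin ligase, had 2162 and 1335 (-0.65 ± 0.20). Hif1an encodes the asparaginyl hydroxylase FIH, which blocks the α subunit's binding to its coactivators. Its probes opposed each other, with 137 and 157 on one (0.24) and 65.5 and 30.0 on the other (-1.08), a mean of -0.42 ± 0.16.

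**Figure D3:**
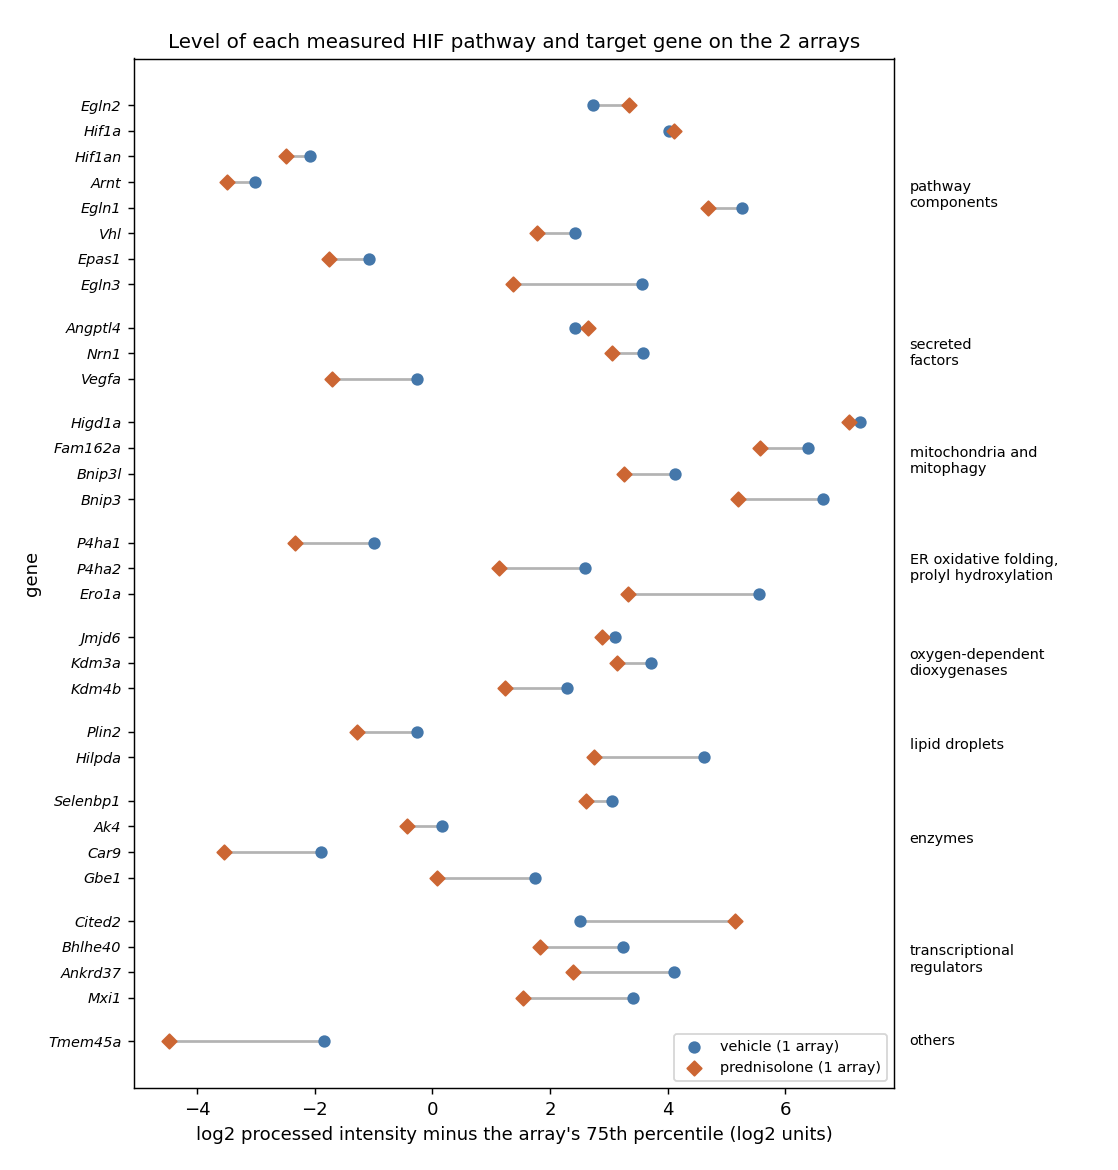
The log2 processed intensity of each measured member relative to its array's 75th percentile (horizontal axis) is plotted for vehicle (circles) and prednisolone (diamonds), 1 array each, with a grey line joining the pair. The diamond lies left of the circle for 28 of the 32 members, and right of it for Egln2, Hif1a, Angptl4 and Cited2; levels of different genes come from different probes and are not compared.

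Among the secreted products, Vegfa, the main growth factor for blood vessels, was 2.72-fold lower (-1.45 ± 0.11) over its 4 probes. They read 1165, 257, 1452 and 28.0 intensity units with vehicle and 283, 55.7, 406 and 30.2 with prednisolone. The 3 brighter ones differed by -1.99, -2.16 and -1.79, and the dimmest by 0.16. Adm, the vasodilator peptide adrenomedullin, read 25.1 with vehicle and 3.45 with prednisolone, and was well above background with vehicle only. This gave a bound, at least 2.06-fold lower. Angptl4, an inhibitor of lipoprotein lipase and a target of both HIF and the glucocorticoid receptor, had 2142 and 2427 (0.23 ± 0.20). Nrn1, a membrane-anchored protein known from neurons, had 4786 and 3202 (-0.53 ± 0.20).

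The mitochondrial genes among the targets were all on the lower side, with 1 of 4 past the 2-fold rule. Of all measured genes, 49.9% lay below 0 and 6.62% were at least 2-fold lower. Groups this small, chosen with earlier results known, do not describe a function as a whole. Bnip3, a receptor for the removal of mitochondria by autophagy, had 40164 with vehicle and 14252 with prednisolone, 2.72-fold lower (-1.45 ± 0.20). Its relative Bnip3l read 3867 and 12804 with vehicle and 2033 and 6737 with prednisolone on its probes, both -0.88, with a technical error of 0.14. Fam162a, a mitochondrial protein linked to cell death in low oxygen, had 33582 and 18389 (-0.82 ± 0.20). These values lie just inside the 2-fold rule's limit, as Kdm4b and Plin2 lie just past it. Higd1a, a small protein of the inner membrane, had 61889 and 52880 (-0.18 ± 0.20).

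The 3 targets of oxidative folding and prolyl hydroxylation in the endoplasmic reticulum were all at least 2-fold lower, as were 6.62% of all measured genes. Other folding genes were not examined. Ero1a, the oxidase that passes electrons from protein disulfide isomerase to oxygen, had 18950 with vehicle and 3890 with prednisolone, 4.71-fold lower (-2.23 ± 0.20). P4ha1 and P4ha2 encode the catalytic subunits of collagen prolyl 4-hydroxylase. P4ha2 had 2427 and 852 (-1.46 ± 0.20). P4ha1 was dim on the probe used, 202 and 76.5 (-1.35 ± 0.21). A P4ha1 probe flagged for its local background only read 1056 and 382 (-1.42). With normexp the P4ha1 difference was -0.95.

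Of the 3 other oxygen-dependent dioxygenases among the targets, 1 was at least 2-fold lower, as were 6.62% of all measured genes. Kdm4b, a histone demethylase, had 1949 and 915 (-1.04 ± 0.20, and -0.81 with spike-in scaling). Kdm3a, another one and a well-known HIF target, had 5280 and 3402 (-0.58 ± 0.20). Jmjd6, a lysyl hydroxylase of splicing factors, had 1127 and 10604 with vehicle and 958 and 8555 with prednisolone on its probes (-0.22 ± 0.14).

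Both genes of lipid storage among the targets were at least 2-fold lower, as were 6.62% of all measured genes. Hilpda, an inhibitor of the triglyceride lipase ATGL, had 9857 with vehicle and 2596 with prednisolone, 3.67-fold lower (-1.88 ± 0.20). Plin2, the coat protein of lipid droplets, read 1090 and 102 with vehicle and 429 and 59.3 with prednisolone. Its probes differed by -1.30 and -0.74, a mean of -1.02 ± 0.15 that became -0.78 with spike-in scaling.

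Of the enzymes among the targets, 2 of 4 were at least 2-fold lower, as were 6.62% of all measured genes. Gbe1, the glycogen branching enzyme, read 4337 and 419 with vehicle against 1392 and 121 with prednisolone, a mean difference of -1.67 ± 0.15 with both probes past 2-fold. Car9, the membrane carbonic anhydrase often used as a marker of low oxygen in tumours, was dim: 63.5 and 182 with vehicle, 23.3 and 46.7 with prednisolone (-1.65 ± 0.17). Both Car9 probes were past 2-fold as well, but with normexp background correction the difference was -0.79. Ak4, a mitochondrial adenylate kinase, read 3407 and 1741 on the brighter probe (-0.92) and 59.0 and 47.6 on the dimmer (-0.26), a mean of -0.59 ± 0.15. Selenbp1, a selenium-binding protein that oxidises methanethiol, had 3344 and 2371 (-0.45 ± 0.20).

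**Figure D4:**
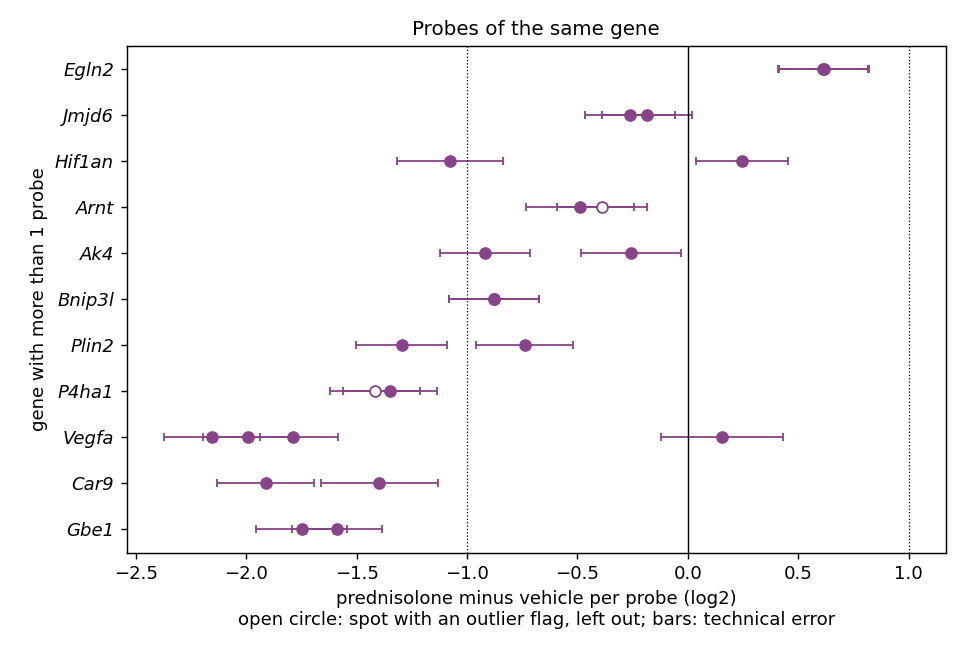
The log2 difference of each single probe, prednisolone minus vehicle (horizontal axis), is plotted for the members with more than 1 probe, with technical errors as bars, open circles for spots with an outlier flag that were left out, and dotted lines at 2-fold. Probes of Vegfa and Hif1an lie on both sides of 0, and those of the other members shown lie on 1 side.

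The transcriptional regulators held the 1 target that was at least 2-fold higher. Cited2, which competes with the α subunit for the coactivators CBP and p300 and so limits HIF, had 2295 with vehicle and 13751 with prednisolone, 6.20-fold higher (2.63 ± 0.20). Of all measured genes, 0.485% were as high or higher. Mxi1, an antagonist of Myc, had 4254 and 1126, 3.65-fold lower (-1.87 ± 0.20). Ankrd37, an ankyrin repeat protein that was listed with this group, had 6906 and 2028 (-1.72 ± 0.20). Bhlhe40, a repressor that also shapes T cell metabolism, had 3795 and 1377 (-1.41 ± 0.20). Cited2 and the other 3 genes listed in this group thus differed in opposite directions.

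Tmem45a, a transmembrane protein, was dim, with 111 with vehicle and 17.3 with prednisolone, 6.23-fold lower (-2.64 ± 0.31). With normexp background correction its difference was -1.11. Ndrg1, a stress-induced gene, has no value because its only spot carried an outlier flag, which concerned the local background only. That spot read 22925 and 9624 (-1.20 ± 0.20). Of the 14 lower targets, 10 rested on 1 probe each.

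**Figure D5:**
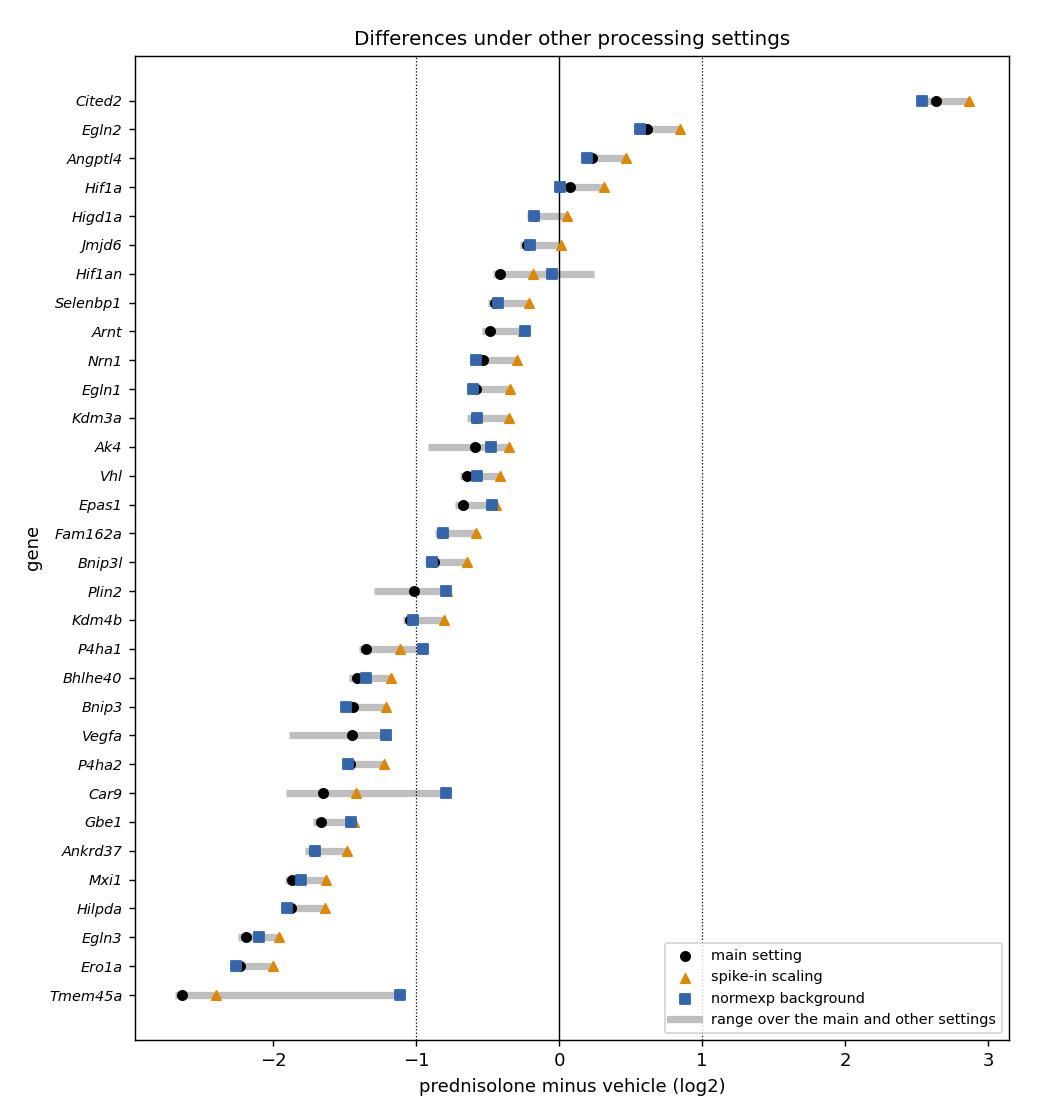
For each measured member the log2 difference, prednisolone minus vehicle (horizontal axis), is plotted for the main setting (circle), spike-in scaling (triangle) and normexp background correction (square), with a grey line for the range over all settings run and dotted lines at 2-fold. The ranges of 10 of the 14 lower targets stay left of the lower dotted line, and Cited2 stays between 2.54 and 2.87.

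The other genes of the pathway were read from lists of known regulators and hypoxia-response genes. Of 18 measured regulators of HIF, such as the VHL complex, the coactivators and the chaperones, none was at least 2-fold lower and 1 was higher, near the shares over all measured genes (6.62% and 5.77%). The higher one was Siah1b, a ubiquitin ligase acting on the Egln proteins, at 1.15 ± 0.20, and its near-copy Siah1a means that its probe may read both. The median of these regulators was 0.04, against -1.20 for the targets. All 21 measured genes of glucose use that HIF also switches on lay below 0, with a median of -0.74, and 5 were at least 2-fold lower. They were the aldolase Aldoc (-2.80 ± 0.05), the glucose transporter Slc2a3 (-2.68 ± 0.22), the glycogen synthase Gys1 (-1.32 ± 0.20), the hexokinase Hk2 (-1.10 ± 0.20) and 1 more. Of all measured genes, 49.9% lay below 0 and 6.62% were at least 2-fold lower. Scaled on the spike-in probes, 17 of the 21 glucose genes lay below 0 and 3 were at least 2-fold lower. On that scale 486 of the 11968 measured genes were at least 2-fold lower, and the median gene lay at 0.24.

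Of 24 further measured hypoxia-response genes, 2 were at least 2-fold lower, 2 were higher and 20 lay below 0 (median -0.48). Of all measured genes, 6.62% were lower by that rule, 5.77% higher and 49.9% below 0, so the counts past 2-fold are near those of all genes. The lipoprotein receptor Vldlr was lower at -2.66 ± 0.21 and the cyclin Ccng2 at -1.58 ± 0.15. The transferrin receptor Tfrc was higher at 1.44 ± 0.14 and the chemokine receptor Cxcr4 at 1.04 ± 0.21. On the spike-in scale, where the median measured gene lay at 0.24, 15 of the 24 lay below 0. Stc1, well above background with vehicle only, was at least 2.45-fold lower.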

How the data were processed

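Per the labels' protocols, 100 ng of total RNA per culture was labelled with Cy3 for 1-colour arrays. Per the file headers, the deposited scanner files hold linear intensity values from Agilent Feature Extraction 12.0.3.1, named also in the submitters' processing notes; the processed signal was already background-subtracted. The submitters' deposited value table holds the same intensity times 1 constant per array (0.792 and 0.858, column medians 16.2 and 16.4), on a linear uncentred scale; the sources used here do not give how the constants were chosen. Both arrays lay on the same slide. Each had 59305 non-control spots, 53.5% of them well above background, and none saturated.

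Processed signals were divided by their array's 75th percentile (400.4 and 386.9 intensity units) and put on the log2 scale. Spots with outlier flags (7.20% with vehicle, 8.92% with prednisolone) were left out, which took 3 of the members' 47 probes. A gene is the mean of its probes well above background on both arrays. Where only 1 array was, the bound sets the brighter array's value against the dimmer array's own value or its lowest detected one, whichever is higher. Accessions were named through a RefSeq table of GRCm38.p6; the headers name mm9, so no gene coordinates are given. Tools were Python 3.11.15, pandas 2.3.3, R 4.3.3 and limma 3.58.1 (normexp), and the scripts were checked on simulated data.

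The member genes and all lists were chosen with earlier results of these data known. Every member is named; of the other lists, genes at least 2-fold apart are named, at most 4 per direction, and a few list genes are not reported here. The alternatives were 4 other scalings, the submitters' table, normexp with offset 50 (on the median signal, since the mean signal is not in the files used), no filter or a filter at 100 intensity units, flagged spots kept, and the brightest probe.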

Additional observations from a re-analysis of the deposited data

How the results depend on the processing

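Across the 10 alternatives the count of targets at least 2-fold lower ran from 11 to 15, and 1 target was higher in each. The targets' median became -0.96 with spike-in scaling and -0.92 with normexp, and the components' median -0.30 with spike-in scaling. Of all genes, those at least 2-fold lower were 486 with spike-in scaling, 410 with normexp, 1701 with no filter on dim probes and 446 with the stricter filter; those higher were 1143, 385, 1460 and 445. Among the 14 lower targets, 4 left the 2-fold rule in some setting: P4ha1 (normexp -0.95), Kdm4b (spike-in -0.81), Car9 (normexp -0.79) and Plin2 (spike-in -0.78, normexp -0.79). Of 316 member values, 269 lay within 1 technical error of the main value, and 28 of 32 members kept their sign. The exceptions were Hif1a (-0.01 with quantile scaling), Hif1an (0.24 with the stricter filter or the brightest probe), Jmjd6 (0.01) and Higd1a (0.06), the last pair with spike-in scaling. The cause was not tested. No paired analysis was possible because each condition had 1 array. The number of arrays limits the precision, and dim members such as Tmem45a, Car9 and Arnt rest on signals closest to background.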
